A study of Mus musculus with 6 samples.

Results

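The TRIM (tripartite motif) genes form one of the large families of ubiquitin ligases, and their levels were followed here in mouse embryonic fibroblasts (MEFs) depleted of the mitochondrial protease YME1L. Members were the loci of the count table that carry a symbol made of Trim, a number and, at most, a letter from a to d, with *Trim25* left out. This rule uses names and no measured value. It found 65 loci with 67 symbols among the 51499 loci of the table, because *Trim47* shares a locus with *Trim65* and *Trim60* with *Trim61*. WT MEFs were transfected with a control siRNA (Scr siRNA) or with an siRNA against *Yme1l* (Yme1l siRNA) and were collected after 72 h, with 3 libraries per group. Both groups are labelled as WT MEFs, and no gene deletion is named for either. In the methods, the immortalized WT line has *Yme1l* alleles with loxP sites that were not recombined. That these cultures are of this line is inferred and not stated. The methods describe a line immortalized with SV40 large T antigen and grown from a single clone, while 3T3 immortalization is given in the labels, and both groups share whichever of these is right. Poly(A)-selected RNA was sequenced, and the deposited values are raw read counts per locus. The libraries held between 37260605 and 45205207 counts.

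TRIM proteins carry a RING finger that binds ubiquitin-conjugating enzymes, B-boxes and a coiled coil through which they pair, followed by a variable C-terminal part that selects the substrate. The PRY-SPRY domain is the most common of these C-terminal parts, and others are NHL repeats, PHD-bromodomain pairs, COS boxes and a MATH domain. Many PRY-SPRY members are induced by interferon and act in antiviral defence, where they restrict retroviral capsids or attach ubiquitin to proteins of the pathways that sense nucleic acids, whereas other members serve in chromatin, in the cytoskeleton and in muscle.

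CPM values are counts divided by library sizes that edgeR's TMM factors had scaled, and errors are SD with n = 3 unless a standard error (SE) is named. Groups were compared with edgeR's quasi-likelihood test over all loci, and loci with an adjusted p under 0.05 are called higher or lower. Of the 65 TRIM loci, 41 had enough counts to be tested. After Yme1l siRNA, 21 of them were higher and 12 were lower, which is 51.2% and 29.3% of those tested. Among all 14499 loci tested, 28.4% were higher and 29.6% were lower, or 58% in either direction. At least 2-fold changes were found upwards for 10 TRIM loci and downwards for 4, beside 8.18% and 7.28% of all loci. In 19 TRIM loci every Yme1l siRNA library lay above every Scr siRNA library and in 13 every one lay below, while the groups did not overlap for 65.4% of all loci. The median log2 fold change of the 41 TRIM loci was 0.26, with a range from -1.70 to 3.22, and that of all loci was 0.01.

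Of the 10 TRIM loci that were higher by at least 2-fold, 9 belong to the genes known to be interferon-inducible. This list, compiled from background knowledge with earlier results of these data known, holds *Trim5*, *Trim6*, *Trim12a*, *Trim12c*, *Trim14*, *Trim21*, *Trim26*, *Trim30a* to *Trim30d*, *Trim34a*, *Trim34b*, *Trim38* and *Trim56*. Of its 15 loci, 11 were tested, 10 were higher, 9 of these by at least 2-fold, and 0 were lower, with a median log2 fold change of 1.40. At an unadjusted p under 0.05 the count was the same 10, all of them higher, and DESeq2 and limma-voom also called 0 lower. *Trim56* was the tested member that was not called. *Trim5* and *Trim14* reached the minimum for testing only in the Yme1l siRNA libraries, so they could enter only as higher genes. Of the 9 that remain without them, 8 were higher, 7 by at least 2-fold, with a median of 1.35, and a filter on a mean of at least 50 counts also left 8 called higher. The other 50 loci gave 30 tested, of which 11 were higher, 12 were lower and 7 were not called, with a median log2 fold change of 0.00. Among these, *Trim69* had the one increase of at least 2-fold, and it too reached the minimum for testing only in the Yme1l siRNA libraries. Without the 3 genes selected in this way, 18 of 38 TRIM loci were higher (47.4%), 7 by at least 2-fold (18.4%), where all loci treated alike gave 27.6% and 5.94%.

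**Figure D1:**
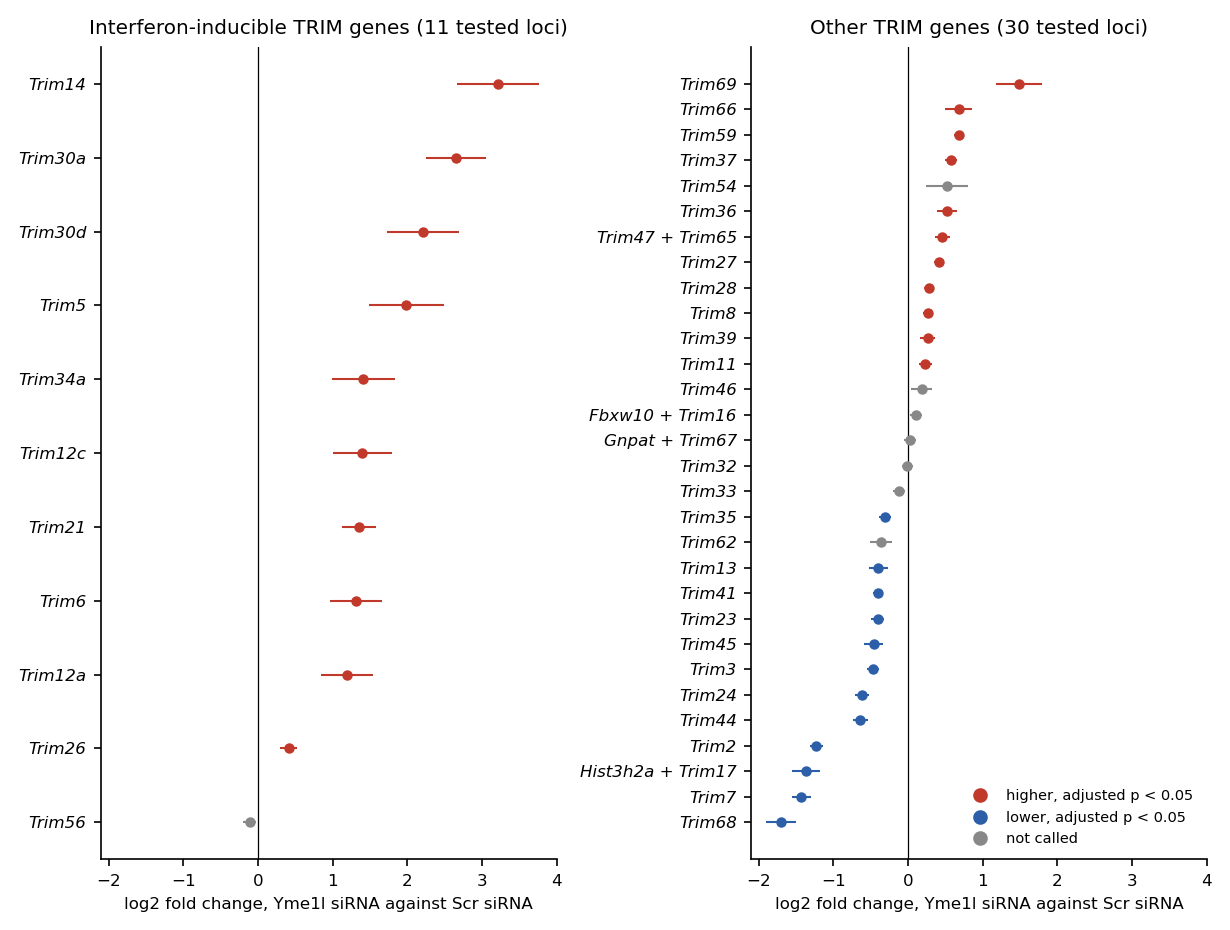
Log2 fold change of each tested TRIM locus after Yme1l siRNA relative to Scr siRNA (x axis), with points for the edgeR estimate and bars for its SE. On the left, 10 of 11 interferon-inducible genes lie above 0 and are called higher, and on the right the other 30 loci spread to both sides, from -1.70 for *Trim68* to 1.49 for *Trim69*. Names joined by a plus sign share 1 locus.

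Short promoter sequences show what several of the interferon-inducible members share beyond their names. The interferon-stimulated response element (ISRE) is a promoter site bound by IRF proteins. Its core was searched as GAAANNGAAA on both strands of the RefSeq promoters (GRCm38.p6), which reach from 250 bases before to 50 bases after a start site. Promoters were found for 52 of the 67 symbols. The windows below run from 20 bases before to 20 bases after the word, where the promoter reaches that far, in the direction of the gene, with the word in capitals. They show how the word is repeated among neighbouring paralogs.
Trim5 (chr7:104288126-104288175, minus strand): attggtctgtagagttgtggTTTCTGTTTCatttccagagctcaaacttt
Trim12a (chr7:104315456-104315505, minus strand): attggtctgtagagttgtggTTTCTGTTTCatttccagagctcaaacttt
Trim12c (chr7:104353349-104353398, minus strand): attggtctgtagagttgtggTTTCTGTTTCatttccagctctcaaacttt
Trim30a (chr7:104465200-104465249, minus strand): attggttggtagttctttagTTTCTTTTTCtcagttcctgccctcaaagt
Trim30d (chr7:104507861-104507910, minus strand): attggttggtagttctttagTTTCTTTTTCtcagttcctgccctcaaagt
Trim34a (chr7:104244447-104244496, plus strand): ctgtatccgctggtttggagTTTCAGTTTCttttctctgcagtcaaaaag
Trim21 (chr7:102565434-102565489, minus strand): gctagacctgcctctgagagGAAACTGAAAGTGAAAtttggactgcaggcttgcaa
Trim26 (chr17:36836966-36837021, plus strand): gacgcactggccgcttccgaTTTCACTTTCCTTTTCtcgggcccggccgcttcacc
Trim2 (chr3:84212789-84212830, minus strand): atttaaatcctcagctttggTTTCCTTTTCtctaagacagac

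The windows of *Trim5* and *Trim12a* were identical over all 50 bases, and that of *Trim12c* matched them at 48 of 50. The windows of *Trim30a* and *Trim30d* were also identical at 50 of 50 bases, and a second start site of *Trim30a*, with the same word, matched *Trim30d* at 38 of 50. *Trim21* and *Trim26* each carried 2 overlapping words, which are printed as 1 run of capitals. In *Trim26* the run began at position -160 from the start site, and in the other genes shown the word began between -49 and 28. The word was present in 8 of the 14 interferon-inducible genes with a promoter (57.1%) and in 1 of the other 38 TRIM genes (2.63%), which was *Trim2*. Among all 27025 genes with a promoter, 1079 held it (3.99%). Among tested TRIM loci of 1 gene with a promoter, the ISRE word was found in 7 of the 9 that were at least 2-fold higher (77.8%), in 1 of the 9 that were lower and in 0 of the 5 that were not called. For all such loci the shares were 9.39%, 3.14% and 2.9%. These are counts of letters, and the list was itself assembled from genes known to respond to interferon. The 7 loci include *Trim5*, which reached the minimum for testing only in the Yme1l siRNA libraries and could enter only as a higher gene. They also count the near-identical windows of *Trim5*, *Trim12a* and *Trim12c*, and those of *Trim30a* and *Trim30d*, as separate loci. *Trim14* and *Trim69* passed the filter in the same way as *Trim5*, and no word was found for them. The shares of all loci include loci that passed in this way.

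A run of 10 TRIM genes lies within 289 kb of chromosome 7 (chr7:104218793-104507849, GRCm38, GENCODE M21 annotation). All 10 belong to the interferon-inducible list. Of these, 7 were tested and all 7 were at least 2-fold higher (beside 8.18% of all loci), with log2 fold changes between 1.19 and 2.65. The 7 include *Trim5*, which reached the minimum for testing only in the Yme1l siRNA libraries and could enter only as a higher gene. The rest of the 7 reached it in both groups. Without the loci that reached it in 1 group alone, 5.94% of all loci were at least 2-fold higher. The other 3, *Trim34b*, *Trim30b* and *Trim30c*, had too few counts to be tested. The groups did not overlap for 4 of the 7, while they did not overlap for 65.4% of all loci. The summed level of the run was 14.4 to 24.5 CPM in the Scr siRNA libraries and 32.8 to 94.4 CPM in the Yme1l siRNA libraries.

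**Figure D2:**
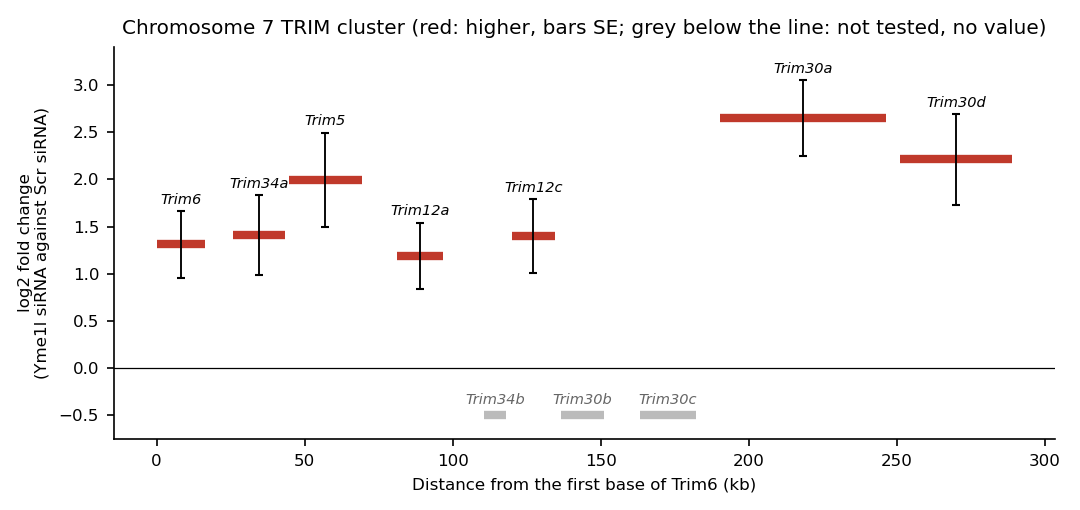
The TRIM run of chromosome 7, with the distance from the first base of *Trim6* in kb (x axis) and the log2 fold change after Yme1l siRNA relative to Scr siRNA (y axis). Each bar spans a gene, vertical lines are SE, and 7 genes lie between 1.19 and 2.65, while the 3 grey genes below the line have no value.

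*Trim30a* had the largest increase of the run. It is a mouse protein that promotes the degradation of the adaptors TAB2 and TAB3 in Toll-like receptor signalling and has no direct human counterpart. Its level was 6.91, 4.10 and 3.37 CPM in the Scr siRNA libraries and 38.3, 37.8 and 14.2 CPM in the Yme1l siRNA libraries. The groups did not overlap, and the lowest Yme1l siRNA library was replicate 3. Its mean rose from 4.79 ± 1.87 to 30.1 ± 13.8 CPM, a 6.26-fold increase (log2 fold change 2.65, SE 0.40, adjusted p = 0.000663).

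The neighbouring paralog *Trim30d* begins 4.82 kb further along the chromosome. It was measured at 2.36, 1.97 and 0.877 CPM with Scr siRNA and at 9.58, 11.1 and 3.32 CPM with Yme1l siRNA. Again the groups did not overlap and replicate 3 was the lowest after Yme1l siRNA. The increase was 4.61-fold (log2 fold change 2.21, SE 0.48, adjusted p = 0.00425). Transcripts of *Trim30a* and *Trim30d* are 90.1% identical over 1719 aligned bases, and the sources do not say how reads that match several places were counted, so that the split between them is uncertain.

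*Trim30b* and *Trim30c* were close to silent in the control cells. *Trim30c* had 1, 0 and 0 counts with Scr siRNA and 25, 22 and 6 counts with Yme1l siRNA, a ratio of summed CPM of 49.6 with a 95% counting interval from 8.52 to 1995. For *Trim30b* the counts were 0, 0 and 0 against 2, 8 and 0. Both were left out of the fit by the filter on low counts. Summed over *Trim30a* to *Trim30d*, which avoids the split of reads, the level rose from 6.53 ± 2.55 to 38.6 ± 18.1 CPM, or 5.90 times. The groups of summed values did not overlap (exact two-sided permutation test, p = 0.1, the smallest value that 3 against 3 libraries allow).

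*Trim5*, *Trim12a* and *Trim12c* are the mouse relatives of human TRIM5, which binds incoming retroviral capsids. *Trim12c* had 7.92, 7.43 and 4.83 CPM in the Scr siRNA libraries and 22.2, 23.4 and 7.62 CPM in the Yme1l siRNA libraries. Replicate 3 of the Yme1l siRNA group fell within the range of the Scr siRNA group, and the other 2 lay far above it. The fitted increase was 2.64-fold (log2 fold change 1.40, SE 0.39, adjusted p = 0.0133), and without Scr siRNA replicate 3 the adjusted p was 0.0511.

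*Trim12a* showed the same order of libraries, with 4.09, 3.27 and 2.77 CPM against 8.54, 10.8 and 3.80 CPM. Its groups overlapped through Yme1l siRNA replicate 3. The increase was 2.29-fold (log2 fold change 1.19, SE 0.35, adjusted p = 0.0168). This call was lost without Scr siRNA replicate 2 or 3 (adjusted p = 0.0549 and 0.0603) and without Yme1l siRNA replicate 1 or 2 (adjusted p = 0.0507 and 0.0569).

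*Trim5* was far less abundant and passed the filter through the Yme1l siRNA group alone, with 5, 7 and 2 counts in the Scr siRNA libraries and 19, 28 and 14 counts in the Yme1l siRNA libraries. These correspond to 0.119 ± 0.0734 and 0.468 ± 0.160 CPM. The groups did not overlap, and the increase was 3.97-fold (log2 fold change 1.99, SE 0.50, adjusted p = 0.00845). *Trim12c* is 94.6% identical to *Trim5* over 3710 aligned bases and 96.5% identical to *Trim12a* over 953, and reads may be divided among these genes. Their summed level was 10.2 ± 2.31 CPM with Scr siRNA and 26 ± 12.4 CPM with Yme1l siRNA, with overlapping groups (exact two-sided permutation test, p = 0.2).

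*Trim34a* and *Trim6* lie beside each other at the start of the run, 9.3 kb apart. *Trim6*, whose human counterpart builds unanchored ubiquitin chains in interferon signalling, was measured at 0.832, 0.637 and 1.19 CPM against 2.71, 2.65 and 1.28 CPM. The groups did not overlap, although Yme1l siRNA replicate 3 lay close to the highest control library. It rose by 2.48-fold (log2 fold change 1.31, SE 0.35, adjusted p = 0.0111).

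For *Trim34a* the levels were 2.22, 2.11 and 1.21 CPM with Scr siRNA and 5.37, 7.18 and 2.11 CPM with Yme1l siRNA. Here replicate 3 of the Yme1l siRNA group again fell inside the range of the control group. The increase was 2.65-fold (log2 fold change 1.41, SE 0.42, adjusted p = 0.0198). The call was lost without Scr siRNA replicate 3 or without Yme1l siRNA replicate 1 or 2, with adjusted p-values of 0.0682, 0.0546 and 0.0686. Its near copy *Trim34b*, 98.7% identical over 1827 aligned bases, had between 0 and 5 counts in each library, and both together gave 1.89 ± 0.493 CPM against 4.95 ± 2.57 CPM, again with overlapping groups (exact two-sided permutation test, p = 0.2).

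*Trim14* had the highest fitted log2 fold change of the tested members, from a very low level, and it was tested only because its counts were high enough after Yme1l siRNA. The protein lacks a RING finger and acts on mitochondria as an adaptor of the antiviral protein MAVS. *Trim14* (chr4:46493781-46536141) had 6, 3 and 3 counts in the Scr siRNA libraries and 62, 43 and 18 counts in the Yme1l siRNA libraries. No library of one group reached the other, and the increase was 9.3-fold (log2 fold change 3.22, SE 0.55, adjusted p = 0.00117). Its exons overlap those of *Nans* on the opposite strand, with 1356 shared bases, and the strand setting of the counting is not given. *Nans* held 2966 to 3848 counts per library and was lower after Yme1l siRNA (log2 fold change -0.36, SE 0.08, adjusted p = 0.00543).

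*Trim21*, a cytosolic Fc receptor that directs antibody-coated virus to the proteasome, lies outside the run on the same chromosome (chr7:102557921-102565486). Its level was 8.32, 7.32 and 5.05 CPM with Scr siRNA and 19.5, 20.6 and 12.5 CPM with Yme1l siRNA. The groups were clearly apart, although replicate 3 was once more the lowest of the Yme1l siRNA libraries. The mean rose from 6.89 ± 1.67 to 17.5 ± 4.37 CPM (2.54-fold, log2 fold change 1.35, SE 0.23, adjusted p = 0.00119).

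*Trim26* and *Trim56* were already abundant in control cells, and they moved little or not detectably. *Trim26*, a regulator of interferon-β production, had 80.2, 77.1 and 77.1 CPM against 110, 116 and 86.3 CPM. Its groups did not overlap and it rose by 1.33-fold (log2 fold change 0.41, SE 0.11, adjusted p = 0.0104). *Trim56*, which modifies nucleic acid sensors, had 101, 104 and 102 CPM against 99.7, 103 and 81.3 CPM, and its log2 fold change of -0.11 (SE 0.09) did not pass the test (adjusted p = 0.346). *Trim38*, the remaining member of the list, had at most 2 counts in any library.

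Replicate 3 of the Yme1l siRNA group stood apart from the others in this list. It was the lowest of its group in 11 of 11 tested interferon-inducible TRIM genes. The summed level of the list was 213 CPM there, compared with 319 and 335 CPM in the other Yme1l siRNA libraries and 198 to 214 CPM in the Scr siRNA libraries. *Trim26* and *Trim56* made up most of the control sums, and *Trim56*, which was not called, was at 81.3 CPM in Yme1l siRNA replicate 3. The chromosome 7 run alone summed to at least 32.8 CPM in every Yme1l siRNA library and at most 24.5 CPM with Scr siRNA. Yme1l siRNA replicate 3 also retained the most *Yme1l1* transcript, at 45 CPM against 31.6 and 23.4 CPM. *Yme1l1* stood at 170 to 171 CPM with Scr siRNA and was lower after Yme1l siRNA (log2 fold change -2.36, SE 0.20, adjusted p = 3.87e-05). Among the other 30 TRIM loci Yme1l siRNA replicate 3 was the lowest of its group in 8 and the highest in 17. Without it, the median log2 fold change of the interferon-inducible list was 1.76 in place of 1.40, and *Trim12a*, *Trim12c* and *Trim34a* passed the test with adjusted p-values of 0.000231, 7.84e-05 and 0.000559. Among the Scr siRNA libraries, replicate 3 was also the lowest in 8 of the 11 tested genes of this list, with a sum of 198 CPM. With the replicate number as a block, *Trim12a*, *Trim12c* and *Trim34a* had edgeR adjusted p-values of 0.00502, 0.000791 and 0.00154. Whether the remaining *Yme1l1* or a factor shared by libraries with the same number has a part in these levels was not tested.

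**Figure D3:**
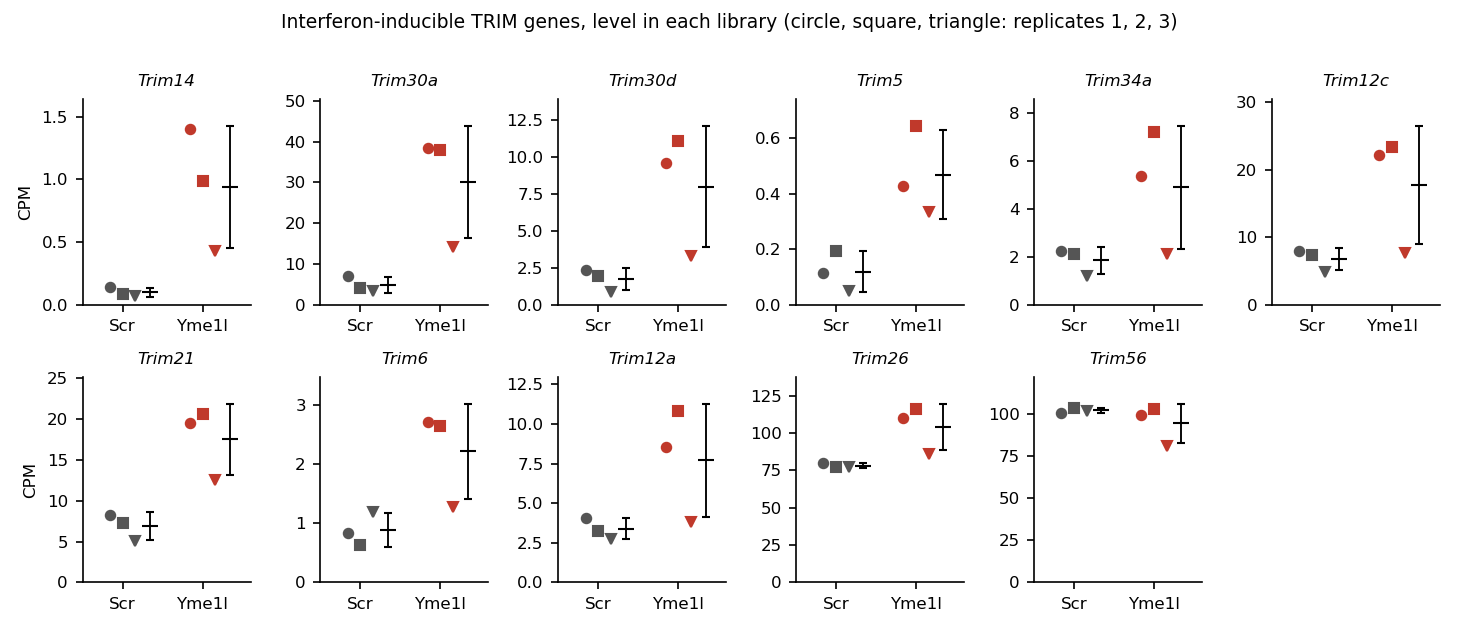
Level of the 11 tested interferon-inducible TRIM genes in each library (CPM, linear axes from 0), with Scr siRNA in grey, Yme1l siRNA in red and the mean with SD beside the points. The triangle of replicate 3 is the lowest red point in every panel, and it falls within the range of the grey points for *Trim34a*, *Trim12c* and *Trim12a*.

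*Trim69* was the one tested gene outside the list with an increase of more than 2-fold, and it was below the minimum for testing in all 3 Scr siRNA libraries. TRIM69 associates with microtubules. It had 9, 8 and 8 counts in the Scr siRNA libraries and 28, 28 and 20 counts after Yme1l siRNA, so the groups were well apart. At 0.206 ± 0.0161 and 0.583 ± 0.0944 CPM it remained a weakly expressed gene (2.81-fold, log2 fold change 1.49, SE 0.31, adjusted p = 0.00318).

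The called increases with the smallest adjusted p among the remaining members outside the list were below 2-fold. *Trim59*, a membrane-anchored ligase of the endoplasmic reticulum, had 89.0, 97.8 and 89.9 CPM with Scr siRNA and 148, 147 and 149 CPM with Yme1l siRNA (1.6-fold, log2 fold change 0.68, SE 0.07, adjusted p = 7e-05). Its Yme1l siRNA libraries had an SD of 1.04 CPM around a mean of 148 CPM. Pseudogenes *Gm15381* and *Gm4921* match its transcript at 94.1% and 93.6%.

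*Trim37*, the MATH-domain ligase that limits centriole assembly, had 44.4, 48.0 and 48.7 CPM against 70.2, 65.7 and 75.6 CPM (log2 fold change 0.58, SE 0.08, adjusted p = 0.000277). *Trim27*, which can join transcriptional repressor complexes, had 54.5, 56.6 and 53.4 CPM against 69.9, 73.2 and 76.0 CPM (log2 fold change 0.41, SE 0.06, adjusted p = 0.00074). Reads of *Trim47* and *Trim65*, whose human counterparts act in antiviral sensing, are counted together at 35.5, 37.1 and 36.0 CPM against 46.9, 57.7 and 45.4 CPM (log2 fold change 0.46, SE 0.10, adjusted p = 0.00335). In all of these the Yme1l siRNA libraries lay above the Scr siRNA libraries.

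Among the lower genes, *Trim68* and *Trim7* fell the most. *Trim68*, a coactivator of the androgen receptor, had 3.28, 2.69 and 2.84 CPM with Scr siRNA and 0.812, 1.04 and 0.854 CPM with Yme1l siRNA. Its level fell to 30.7% of the control, with no overlap between groups (log2 fold change -1.70, SE 0.20, adjusted p = 0.00016). It lies 112 kb from *Trim21*, which moved in the opposite direction.

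*Trim7*, known from its binding to the glycogen primer glycogenin, had 7.83, 7.29 and 8.13 CPM against 2.68, 2.99 and 2.94 CPM. The groups were tight and far apart, and the gene fell to 37.1% of the control (log2 fold change -1.43, SE 0.13, adjusted p = 4.76e-05). Its exons overlap *Gm12184* on the opposite strand, which was also lower (log2 fold change -0.56, SE 0.12, adjusted p = 0.00435). The neighbour of *Trim7* at a distance of 8.79 kb, *Trim41*, was lower as well, with 52.2, 55.3 and 57.1 CPM against 40.2, 41.8 and 42.0 CPM (log2 fold change -0.41, SE 0.06, adjusted p = 0.000745). *Trim41* shares exonic sequence with *Rack1* on the other strand, and *Rack1*, at 30022 to 50851 counts per library, was higher (log2 fold change 0.45, SE 0.07, adjusted p = 0.000862).

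*Trim17*, linked to neuronal apoptosis, is counted together with the histone gene *Hist3h2a*, so its own level is uncertain. This locus had 5.57, 4.88 and 5.85 CPM with Scr siRNA and 1.83, 1.86 and 2.61 CPM with Yme1l siRNA (38.6% of the control, log2 fold change -1.37, SE 0.19, adjusted p = 0.000371). The groups did not overlap. *Trim11*, which lies 4.99 kb away, was measured 0.23 higher on the log2 scale (SE 0.09, adjusted p = 0.048), and this call was lost in 5 of the 6 fits without 1 library, with adjusted p-values of 0.172 and 0.136 without Scr siRNA replicate 1 and 2 and of 0.0564, 0.123 and 0.0594 without Yme1l siRNA replicate 1, 2 and 3.

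The NHL-repeat group holds *Trim2*, *Trim3*, *Trim32* and *Trim71*. Of its 3 tested genes, 2 were called lower (beside 29.6% of all loci) and 0 higher (beside 28.4%), too few genes to set the group apart. The same 2 passed at an unadjusted p under 0.05. DESeq2 and limma-voom also called 0 of the 3 higher. *Trim2*, a ligase for neurofilament light chain in neurons, was the most abundant of the strongly reduced members, with 142, 141 and 153 CPM against 60.3, 56.1 and 69.3 CPM. It fell to 42.6% of the control without overlap (log2 fold change -1.23, SE 0.09, adjusted p = 2.04e-05), and it is also the TRIM gene outside the interferon-inducible list whose promoter holds the ISRE word shown above. *Trim3*, a brain-enriched ligase, had 43.3, 46.6 and 46.2 CPM against 31.2, 35.8 and 31.2 CPM (log2 fold change -0.47, SE 0.08, adjusted p = 0.00102).

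*Trim32*, mutated in a limb-girdle muscular dystrophy, did not pass the test, at 69.1 CPM with Scr siRNA and 68.5 CPM with Yme1l siRNA on average (log2 fold change -0.01, SE 0.07, adjusted p = 0.896). *Trim71*, a target of the let-7 microRNA in stem cells, had at most 3 counts in a library. The summed level of the 4 genes was 250 to 272 CPM in the Scr siRNA libraries and 159 to 171 CPM in the Yme1l siRNA libraries.

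The PHD-bromodomain genes (the TIF1 group) act on chromatin, and they moved in both directions. *Trim28*, the corepressor that KRAB zinc finger proteins recruit to silence retroelements, had 241, 233 and 230 CPM against 280, 266 and 307 CPM. All Yme1l siRNA libraries were higher, by 1.21-fold on average (log2 fold change 0.28, SE 0.07, adjusted p = 0.0124), and without Scr siRNA replicate 2 the adjusted p was 0.0511. *Trim24*, a coregulator of nuclear receptors, was instead lower in every Yme1l siRNA library, with 36.7, 34.9 and 34 CPM against 24.6, 24 and 20 CPM (log2 fold change -0.62, SE 0.09, adjusted p = 0.000593).

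*Trim66* was higher at a low level, with 2.14 against 3.43 CPM on average (log2 fold change 0.68, SE 0.18, adjusted p = 0.0117). *Trim33*, a partner of SMAD proteins, had a log2 fold change of -0.12 (SE 0.08, adjusted p = 0.248), and without Yme1l siRNA replicate 3 this was -0.20 with an adjusted p of 0.0347. The 4 genes thus gave 2 higher, 1 lower and 1 not called, where 58% of all loci were called in either direction.

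Members with no added C-terminal domain and the membrane-bound members were mixed too. *Trim44*, which carries a zinc finger of ubiquitin-specific proteases and no RING, had 182, 180 and 178 CPM with Scr siRNA and 120, 97.2 and 129 CPM with Yme1l siRNA. The control libraries were nearly identical and all lay above the others (64.0% of the control, log2 fold change -0.64, SE 0.10, adjusted p = 0.00083). *Trim8*, a regulator of JAK-STAT signalling, was higher by 0.26 on the log2 scale (SE 0.06, adjusted p = 0.00714).

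*Trim35*, a PRY-SPRY member, was among the most abundant genes of the family and had 251, 248 and 232 CPM against 207, 179 and 204 CPM (log2 fold change -0.31, SE 0.08, adjusted p = 0.00984). *Trim23*, which ends in an ARF-type GTPase domain, was lower by a log2 fold change of -0.41 (SE 0.09, adjusted p = 0.00541). Calls of *Trim13*, *Trim45* and *Trim39* were also lost without 1 library. For *Trim13*, an endoplasmic reticulum ligase, the log2 fold change was -0.40 (SE 0.13, adjusted p = 0.0251), and the adjusted p was 0.0872 and 0.0589 without Scr siRNA replicate 2 and 3, and 0.081 and 0.0571 without Yme1l siRNA replicate 1 and 3.

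*Trim45* had a log2 fold change of -0.46 (SE 0.13, adjusted p = 0.0152), and leaving out Yme1l siRNA replicate 1 gave an adjusted p of 0.0639. *Trim39* had a log2 fold change of 0.26 (SE 0.10, adjusted p = 0.0431), with adjusted p-values of 0.138, 0.154, 0.0799 and 0.119 without Scr siRNA replicate 1 and 2 and Yme1l siRNA replicate 1 and 2. With the replicate number as a block its adjusted p was 0.0536.

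Within the PRY-SPRY group, which holds 36 of the 65 loci, the loci outside the interferon-inducible list gave calls in both directions. Of the 12 tested PRY-SPRY loci outside that list, 5 were higher and 5 were lower, or 41.7% each beside 28.4% and 29.6% of all loci. The 5 higher loci include *Trim69*, which reached the minimum for testing only in the Yme1l siRNA libraries and could enter only as a higher gene. Without the loci that reached it in 1 group alone, 27.6% of all loci were higher. The median log2 fold change of the 12 loci was -0.10. Their summed level lay between 503 and 510 CPM in the Scr siRNA libraries and between 481 and 483 CPM in the Yme1l siRNA libraries. Whether the 2 sets differ was not tested, because the list was drawn up with results known. The tested COS-box genes, whose proteins bind microtubules, were *Trim36*, *Trim46*, *Trim54* and *Trim67*, and *Trim67* is counted together with *Gnpat*. They gave 1 call, while 58% of all loci were called in either direction. This was *Trim36*, which was higher (log2 fold change 0.52, SE 0.13, adjusted p = 0.00784).

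**Figure D4:**
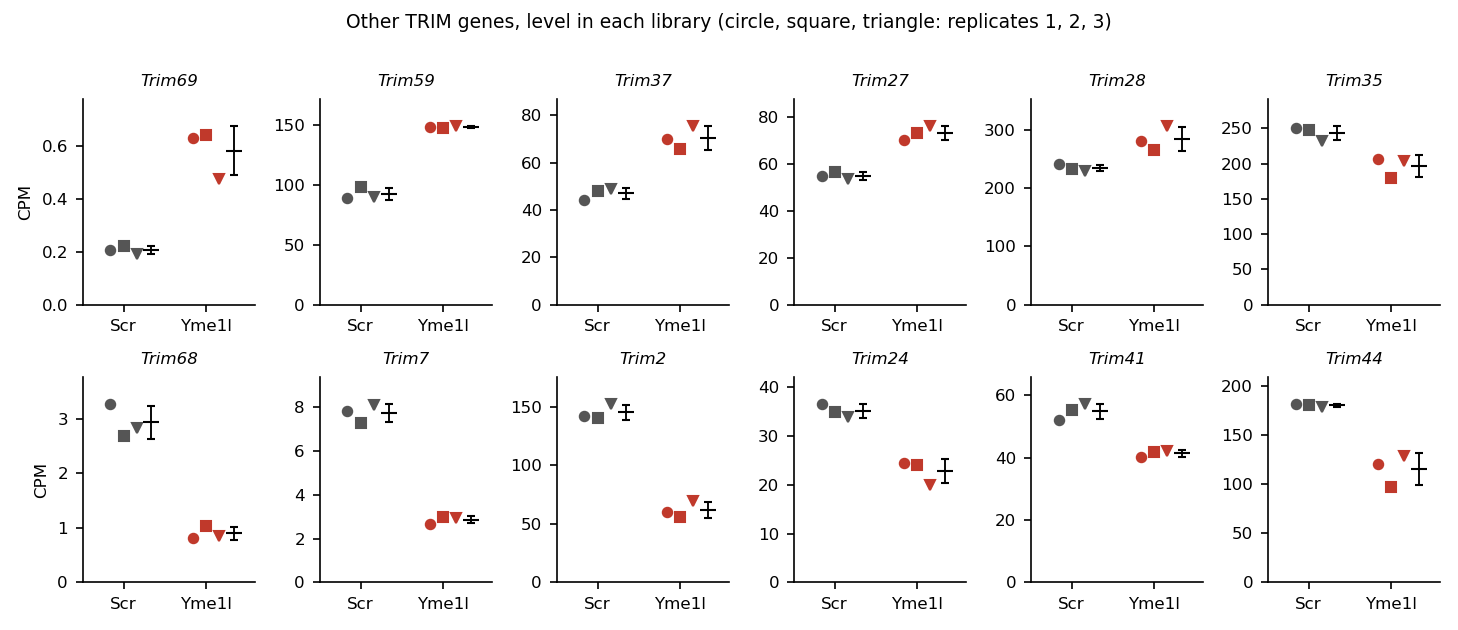
Level in each library of 12 TRIM genes outside the interferon-inducible list (CPM, linear axes from 0), with Scr siRNA in grey, Yme1l siRNA in red and the mean with SD beside the points. The red points lie above the grey points for *Trim69*, *Trim59*, *Trim37*, *Trim27* and *Trim28* and below them for the other 7 genes.

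Relative to exon length, *Trim28* was the most abundant of the 37 tested TRIM loci that hold a single gene, in both groups (56.5 CPM per kb of exon with Scr siRNA and 68.4 with Yme1l siRNA). *Trim35* took place 2 in the control cells at 52.8 CPM per kb and place 3 after Yme1l siRNA at 42.6. The control libraries of *Trim28*, at 55.4 to 57.9 CPM per kb, did not overlap those of *Trim35*, at 50.2 to 54.3. In contrast, those of *Trim21* (1.36 to 2.24) and *Trim12c* (1.29 to 2.12), which follow each other in the middle of the order, did overlap. *Trim59* moved from place 4, at 27.5 CPM per kb, to place 2, at 44.1. *Trim30a* rose from place 24 to place 14, with 1.17 and 7.32 CPM per kb, whereas *Trim2* fell from place 14 to place 22. The exon length used is the union of all annotated exons of a gene, 19751 bases for *Trim2* and 4158 for *Trim28*. Places across genes therefore depend on the annotation. *Trim14* and *Trim5* held the last places in both groups, at 0.0225 and 0.0322 CPM per kb with Scr siRNA and at 0.216 and 0.127 with Yme1l siRNA. The summed level of all 65 TRIM loci barely differed, at 1863 to 1866 CPM against 1861 to 1894 CPM.

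**Figure D5:**
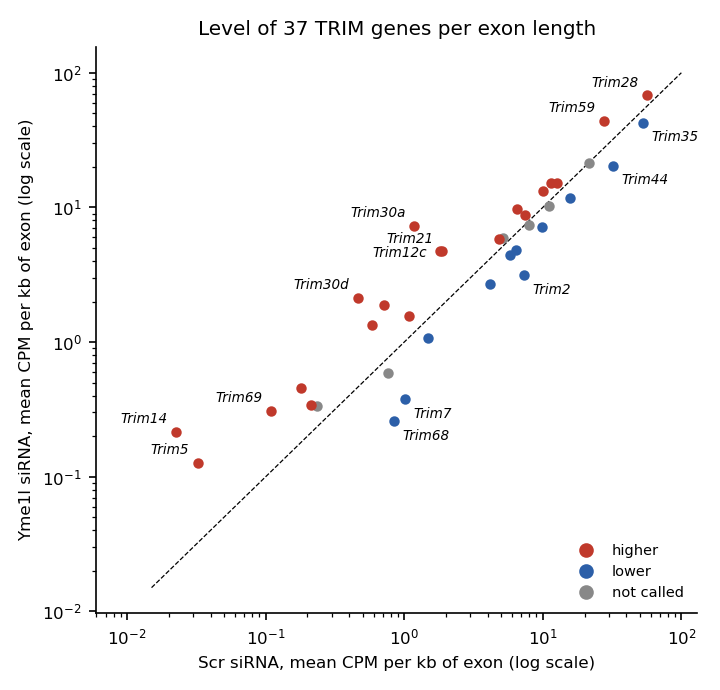
Mean level of 37 TRIM genes per kb of exon (CPM per kb, both axes logarithmic) with Scr siRNA (x axis) and Yme1l siRNA (y axis), colored by the edgeR call. The dashed line marks equal levels. *Trim28* lies at the upper right at 56.5 and 68.4 CPM per kb, and *Trim30a* lies above the line at 1.17 and 7.32.

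The 24 loci that were not tested included the muscle ligases *Trim55* and *Trim63* and the testis- or embryo-restricted genes *Trim42* and *Trim43a* to *Trim43c*. Of them, 10 had 0 counts in every library, including *Trim31*, *Trim40*, *Trim50*, *Trim55*, *Trim42* and *Trim75*. At these depths, 0 counts allow up to 3 counts per library, so low expression of these genes could not be detected. The other 14 had at most 25 counts in a library. The highest counts outside the interferon-inducible list belonged to *Trim29*, with 4, 3 and 16 against 10, 4 and 0, and to *Trim15*, with 3, 0 and 1 against 10, 1 and 5.

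TRIM proteins that carry other symbols gave calls in both directions. *Pml*, which organizes nuclear bodies and is induced by interferon, was measured at 50 ± 4.37 and 99.5 ± 19.0 CPM and was higher (log2 fold change 0.99, SE 0.14, adjusted p = 0.00042). *Mid2*, a microtubule-associated ligase, was lower, at 41.9 ± 2.96 and 15.2 ± 1.48 CPM (log2 fold change -1.46, SE 0.09, adjusted p = 1.21e-05). Its paralog *Mid1* had 17.5, 5.38 and 5.83 CPM with Scr siRNA and 4.87, 5.04 and 4.51 CPM with Yme1l siRNA, so that Scr siRNA replicate 1 stood far above the rest. Its log2 fold change of -1.0 (SE 0.42) did not pass the test (adjusted p = 0.0674). Leaving out Scr siRNA replicate 1 gave -0.23, and leaving out Scr siRNA replicate 2 or 3 took it past the threshold (lowest adjusted p = 0.0294). *Mefv*, which encodes pyrin, had too few counts to be tested.

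Other components of the same ubiquitin pathway were read from lists compiled in the same way. Of 18 genes for ubiquitin, its activating enzymes and conjugating enzymes, 2 were higher (11.1%) and 5 were lower (27.8%), shares that do not exceed those of all loci (28.4% and 29.6%). *Ube2d1*, an E2 enzyme that many RING ligases use, was lower (43.4 ± 1.17 against 18.1 ± 2.09 CPM, log2 fold change -1.26, SE 0.09, adjusted p = 1.99e-05), as was *Ube2e2* (log2 fold change -0.90, SE 0.13, adjusted p = 0.000609). The more abundant paralogs of *Ube2d1* did not pass the test. These were *Ube2d2a* (116 ± 45.2 against 147 ± 3.92 CPM) and *Ube2d3* (310 ± 9.34 against 309 ± 15.8 CPM). The locus of *Ube2g2*, which is joined with *Sumo3*, was higher (log2 fold change 0.94, SE 0.07, adjusted p = 2.55e-05). With the replicate number as a block 4 of the 18 were higher.

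Of 10 partners of TRIM28 in heterochromatin, 3 were higher (30%, beside 28.4% of all loci) and 2 were lower (20%, beside 29.6%). With the replicate number as a block *Cbx5* became lower as well (adjusted p = 0.0294), which made 3. *Morc3* was higher (log2 fold change 0.52, SE 0.06, adjusted p = 0.000189), and the NuRD helicases *Chd4* (log2 fold change -0.53, SE 0.08, adjusted p = 0.000797) and *Chd3* (log2 fold change -0.79, SE 0.15, adjusted p = 0.00208) were lower. The methyltransferase *Setdb1* was higher, with 83.4 against 103 CPM on average (log2 fold change 0.30, SE 0.08, adjusted p = 0.00882).

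Of 17 signalling proteins that TRIM ligases are known to bind or modify, 7 were higher (41.2%, beside 28.4% of all loci) and 0 were lower by edgeR (beside 29.6%). At an unadjusted p under 0.05 there were 9, with *Ikbke* and *Irf3* the 2 that were lower, and DESeq2 and limma-voom called 0 lower. *Mb21d1*, which encodes the DNA sensor cGAS, was measured at 19.3 ± 1.51 and 54.1 ± 6.00 CPM (log2 fold change 1.49, SE 0.10, adjusted p = 1.46e-05). The RNA sensors *Ifih1* (log2 fold change 1.68, SE 0.26, adjusted p = 0.000766) and *Ddx58* (log2 fold change 1.26, SE 0.20, adjusted p = 0.000908) were higher too. *Tab2* and *Tab3*, the targets of TRIM30A named above, were higher by 0.23 and 0.26 on the log2 scale (adjusted p = 0.0211 and 0.0223), and both calls were lost when single libraries were left out: for *Tab2*, Scr siRNA replicate 2 or 3 or Yme1l siRNA replicate 1 (highest adjusted p = 0.0895), and for *Tab3*, any library other than Yme1l siRNA replicate 2 (highest adjusted p = 0.0917). With the replicate number as a block, *Mavs* and *Irf3* became lower (adjusted p = 0.0324 and 0.041).

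The cells carried the markers of fibroblasts, with *Col1a1*, *Col1a2*, *Col3a1*, *Fn1*, *Vim* and *Pdgfrb* abundant and *Thy1* and *Lum* at or near 0. After Yme1l siRNA, 5 of the 6 tested markers were lower, beside 29.6% of all loci (summed level 32948 to 40018 CPM against 17642 to 22052 CPM). Among macrophage and leukocyte markers, *Adgre1* and *Cd3e* had 0 counts in every library and *Ptprc* and *Itgam* had at most 3, while *Csf1r* was higher (log2 fold change 0.74, SE 0.10, adjusted p = 0.000431) and *Cd68* and *Cd14* did not pass the test. The summed level of this marker list was 193 to 208 CPM against 273 to 286 CPM. Mean levels rose from 123 to 205 CPM for *Csf1r*, but went from 46.8 to 42.8 CPM for *Cd68* and from 28.5 to 30.1 CPM for *Cd14*. The higher sum is thus not a rise of the list as a whole. Of 4 endothelial markers, *Kdr* was higher, from 3, 9 and 7 to 43, 43 and 38 counts (adjusted p = 0.00058), as was *Tek* (log2 fold change 0.61, SE 0.17, adjusted p = 0.0123), while *Pecam1* did not pass the test and *Cdh5* was not tested, and the summed level was 3.79 to 4.08 CPM against 5.68 to 7.81 CPM. Of 4 epithelial markers, *Krt8* was called higher from 1 count in each Scr siRNA library to 24, 31 and 23 counts (adjusted p = 7.63e-05), *Krt18* had 0 counts in every Scr siRNA library, and the summed level was 0.0924 to 0.166 CPM against 0.807 to 1.33 CPM. *Krt8* was under the minimum for testing in every Scr siRNA library and *Kdr* in Scr siRNA replicates 1 and 3, so neither would have been tested through the Scr siRNA group alone. Of 6 striated muscle markers, *Des* was the 1 tested and did not pass (adjusted p = 0.31), and *Myod1* and *Myog* had 0 counts in every library. The other 3 were low but had more counts in every Yme1l siRNA library. *Ttn* had 0, 0 and 1 counts against 3, 6 and 4, *Actn2* 3, 1 and 2 against 9, 5 and 6, and *Myh3* 0, 0 and 0 against 3, 6 and 1. Summed levels of the list were 3.37 to 3.8 CPM against 2.63 to 3.75 CPM. The part of any of these cell types in the TRIM levels was not tested. In bulk RNA, more cells that express a gene and more RNA of that gene per cell cannot be told apart.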

How the data were processed

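Per the methods and the submitters' processing notes, poly(A) RNA was made into stranded libraries, sequenced from both ends, mapped to GRCm38 with HISAT2 2.0.4 and assembled with StringTie 1.3.3. The authors deposited raw counts per locus without normalization. The counting program, its strand setting and its treatment of reads with several matches are not given in the sources used here. A second deposited table holds the authors' own Cuffdiff 2.2.1 comparison (group FPKM values, fold changes, p-values and q-values) and was not used.

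All 6 libraries, grouped by their labels, were compared with edgeR 4.0.16 (R 4.3.3): filterByExpr (minimum 10 counts, 15 in total), TMM factors, quasi-likelihood test, no covariate, and Benjamini-Hochberg adjustment over 14499 loci with a threshold of 0.05. The SE is the size of the log2 fold change divided by the square root of F. The common dispersion corresponds to a biological coefficient of variation of 0.131. The edgeR, DESeq2 and limma-voom fits were each tested on simulated data at their main settings, and the other alternatives were not. Libraries of 1 group differed by more than counting noise (chi-square per degree of freedom of 10.3 to 76.3). Per the methods, replicates of MEF experiments are independent cell cultures. Counting intervals and limits (95%, exact) cover counting error only.

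The members and lists were chosen with earlier results of these data known. Named with values were all interferon-inducible TRIM genes, other members called at 2-fold or more, the 4 called members with the smallest adjusted p among the rest in each direction, the 4 with the highest mean CPM, members whose call was lost without 1 library and, of other lists, the 3 with the smallest adjusted p. *Trim8*, *Trim23*, *Trim32*, *Trim33*, *Trim36*, *Trim66*, *Trim71*, *Trim29*, *Trim15*, *Ube2d2a*, *Ube2d3*, *Setdb1*, *Cbx5*, *Ikbke*, *Tab2*, *Tab3*, *Mavs* and *Irf3* were added after their values were seen. Libraries with the same number deviated together from their group means (r of log2(CPM + 1) over loci of 0.111, 0.189 and 0.276), and the numbers were treated as pairs in an alternative fit, although with edgeR's own log2 CPM the first value was 0.041. Other alternatives were DESeq2 1.42.0, limma 3.58.1 (voom), other scale factors, filters and thresholds, and leaving out each library. Coordinates and exon lengths came from GENCODE M21 and near copies from BLAST 2.17.0. Figures were drawn with matplotlib 3.10.9. A marker gene and a promoter word are not reported here.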

Additional observations from a re-analysis of the deposited data

How the results depend on the processing

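Of 41 tested TRIM loci, 27 kept their call and direction under each of the 14 alternatives that gave a value. For 4 of these, *Trim5*, *Trim14*, *Trim54* and *Trim69*, the mean of at least 50 counts gave none. Other scale factors moved the median of all loci by at most 0.02. At a threshold of 0.01, 12 TRIM loci were higher, 5 of them interferon-inducible, and 1 ubiquitin pathway gene was higher. With a filter of at least 1 count, which adds weakly expressed loci, the median log2 fold change was 0.40 for all TRIM loci and 0.13 for those outside the interferon-inducible list, and 2 TRIM proteins under other symbols were lower. With the replicate number as a block, 4 ubiquitin pathway genes were higher, 2 signalling genes were lower and 3 TRIM28 partners were lower in place of 2. Among TRIM loci the block changed no call other than that of *Trim39* (adjusted p = 0.0536). Without 1 library, TRIM loci called higher numbered 17 to 21 and lower 10 to 12, interferon-inducible ones higher 8 to 11, their median 1.17 to 1.76, and the median of the other TRIM loci -0.05 to 0.04. The 11 include *Trim30c*, which then passed the filter through the Yme1l siRNA libraries alone, so that it could enter only as a higher gene. In the same fits, lower TRIM proteins under other symbols numbered 1 to 2, higher ubiquitin pathway genes 1 to 3 and lower signalling genes 0 to 1. *Trim32*, not called, changed sign with upper-quartile factors (0.01), with a mean of at least 50 counts (0.02) and without 1 library (0.01 and 0.02, in a range from -0.07 to 0.02), and so did the joined locus of *Trim67* without 1 library (-0.02 and -0.06, in a range from -0.06 to 0.06). The cause was not tested. DESeq2 called 21 TRIM loci higher and 12 lower, and limma-voom 19 and 12. Genes under about 10 counts per library were beyond the depth of these libraries.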

Other observations

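The run of TRIM genes on chromosome 7 also holds 5 other annotated loci. One of them, *Gm16464*, was named after its values were seen. It had 31, 40 and 31 counts in the Scr siRNA libraries and 83, 87 and 53 counts after Yme1l siRNA, and its groups did not overlap (log2 fold change 1.01, SE 0.28, edgeR adjusted p = 0.013). The other 4 had between 0 and 5 counts per library and were not tested.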
